A study of Mus musculus with 6 samples.

Results

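Genes known to govern how an impulse arises in and crosses the atrium were followed by RNA sequencing in old mouse atria. They are the connexin genes Gja1, Gja5 and Gjc1, the sodium channel subunit gene Scn4b, and the calcium channel subunit genes Cacna1c, Cacna1d, Cacna1g, Cacna1h and Cacnb2. The 9 were chosen by name from the 54838 genes of the count table, and all 9 had reads in all 6 libraries and entered the tests. The series set out to compare atria of 3 old mice lacking PKC-epsilon, the epsilon isoform of protein kinase C (gene Prkce), with atria of 3 old wild-type (WT) mice. Each library is 1 mouse. The mice averaged 20.9 ± 0.43 months of age per the labels, which do not say what the error is, and both sexes were used. WT mice belong to the line C57BL/6J, and the knockout (KO) mice to the line of JAX stock 004189. The labels give no treatment, and do not say whether left and right atria were kept apart.

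Gap junctions join neighbouring cardiomyocytes through channels built of connexins, and these carry current from cell to cell. Gja1 encodes the connexin found throughout working myocardium. Gja5 encodes a fast-conducting connexin of atrium, conduction system and arterial endothelium, and Gjc1 a low-conductance connexin known from the nodes. Sodium channels drive the upstroke of the atrial action potential, and Scn4b is a beta subunit that modulates their gating. L-type calcium channels trigger contraction through the pore subunit of Cacna1c, with that of Cacna1d added in atrium and sinoatrial node, and Cacnb2 encodes the auxiliary beta subunit that brings the pore to the membrane. T-type channels, with pores from Cacna1g and Cacna1h, open at more negative voltages and contribute to pacemaking. PKC-epsilon is a kinase known to phosphorylate the Gja1 connexin.

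The labels contradict each other for 4 of the 6 libraries: the library name says KO where the genotype field, title and mouse line say WT, or the reverse. Libraries are therefore called here by their library name, labelled WT 1 to WT 3 and KO 1 to KO 3, and every comparison was made under both readings. By the genotype field the WT group holds WT 1, KO 2 and KO 3, and the KO group holds KO 1, WT 2 and WT 3. Prkce does not settle it. Levels are given in CPM, counts scaled to the library's normalised total. Prkce was 36.2, 11.7 and 30.2 in the libraries labelled WT 1, WT 2 and WT 3, and 9.2, 5.15 and 28.6 in those labelled KO 1, KO 2 and KO 3. WT 1, WT 3 and KO 3 were between 28.6 and 36.2 CPM and the others were lower, and neither reading of the labels parts them. Tested by quasi-likelihood in edgeR, the log2 difference of Prkce, KO over WT, was -0.85 (SE 0.72) under the library names. Under the genotype field it was -0.45 (SE 0.79), with an adjusted p of 0.957. All directions below are those of the labels.

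Library totals ran from 11574206 to 24138824 counts. The libraries carry the markers of their labelled tissue: all 7 atrial cardiomyocyte markers were present, and their summed level ran from 38200 to 49100 CPM. Ventricular markers summed to 153 to 371 CPM in the WT group by genotype field and to 442 to 700 CPM in its KO group, without overlap. Among them Myl2, the ventricular regulatory light chain, was 1 of the 2 genes of 14708 that passed the test by genotype field (log2 fold change 3.09, SE 0.25, adjusted p = 0.00386 in edgeR). Myl2 was at 32.6, 25.7 and 33.4 CPM in WT 1, KO 2 and KO 3, and at 251, 357 and 174 CPM in KO 1, WT 2 and WT 3. Without Myl2, the sum of the other ventricular markers overlapped between these groups. Y-linked transcripts summed to 1.11 and 1.12 CPM in WT 1 and WT 2 and to between 80.0 and 138 CPM in the other 4 libraries. The part that ventricular tissue plays in the values below was not tested. With Y-linked expression as a covariate, the library-name fold change of Gja5 went from 0.69 to 0.34 on the log2 scale, and the signs of Scn4b, Cacna1h and Cacnb2 turned, all without a call.

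Gja5 needs a caution that comes before its values, because most of its exons lie where other genes are annotated. The gene spans chr3:96904693-97077416 on the plus strand of GRCm38, and 73.4% of that span is free of other genes. Of its 5746 exon bases, only 283 (4.93%) are free, and its largest exon, of 3039 bases, has 0 free bases because the antisense gene 4930573H18Rik covers it. Reads falling in more than 1 gene appear to have been left out: among 1348 protein-coding genes with no free part, 98.1% were at 0 in all libraries, against 19.6% of 19568 genes at least 50% free. The same held for 872 of 885 genes (98.5%) whose bodies were covered but whose exons were at least 90% their own, so it went with overlap of gene bodies rather than of exons. The counts of Gja5 therefore miss most of its transcript, and its level cannot be set against the other connexins. 7 of the other 8 genes were at least 96.2% free, and Cacnb2 was 81.8% free.

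**Figure D1:**
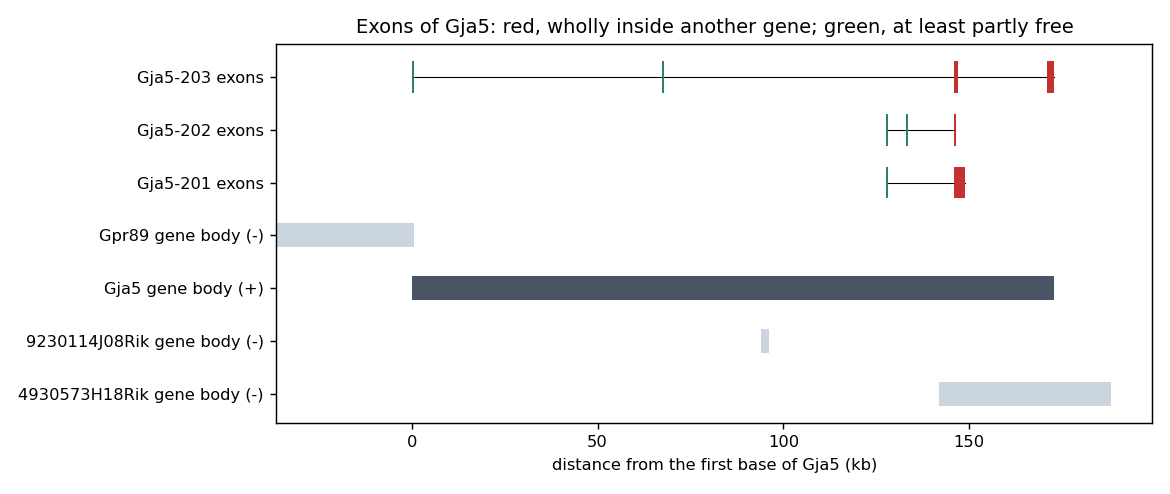
Map of Gja5 and of genes annotated over it, in kilobases from the start of the gene; bars are gene bodies and exons, red exons lie wholly inside another gene, and exons under 0.5 kb are widened to that length. The large exon near 146 kb lies under the antisense gene 4930573H18Rik and has 0 bases free of other genes.

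The bases before the RefSeq start of Gja5 and of Gja1 are shown because the Gja5 exon that starts near there is among its few exon bases that could be counted, and Gja1 is the connexin it is set against. Both are 250 bases on the plus strand of GRCm38.p6, from RefSeq, ending at the base before its transcript start. For neither gene does that RefSeq start match a transcript start of the gene annotation used for the other positions here. The RefSeq table held 6 of the 9 genes. Capitals mark matches on either strand to core motifs of factors known in heart or at many promoters. AAGTG is the core bound by NKX2-5 and was found in 40.7% of the 32851 promoter windows of the table. The T-box core GGTGT was found in 36.2% of them. The GATA core AGATAA, whose other strand reads TTATCT, was found in 9.99%, and the Sp1 box GGGCGG in 32.7%.
Gja5, chr3:97032152-97032401: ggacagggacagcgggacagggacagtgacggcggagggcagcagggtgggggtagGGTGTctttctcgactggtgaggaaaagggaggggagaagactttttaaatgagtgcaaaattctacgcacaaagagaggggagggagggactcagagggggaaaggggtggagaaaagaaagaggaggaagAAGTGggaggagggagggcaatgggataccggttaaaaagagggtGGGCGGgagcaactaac
Gja1, chr10:56377050-56377299: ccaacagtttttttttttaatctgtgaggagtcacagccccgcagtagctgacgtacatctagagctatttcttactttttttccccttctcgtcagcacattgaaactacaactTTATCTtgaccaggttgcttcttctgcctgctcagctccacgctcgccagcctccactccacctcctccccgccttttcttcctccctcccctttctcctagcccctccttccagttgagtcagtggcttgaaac
The Gja5 window holds 1 match each to the NKX2-5, T-box and Sp1 motifs and 0 to the GATA core. The Gja1 window holds 1 match, to the GATA core. Matches of this length are common and describe the letters alone.

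Gja1 had the highest level per length of the 9 genes in every library, whichever length was used. Levels were compared between genes as CPM per kilobase of all annotated exons, mean ± SD over the 6 libraries. The counting settings are not known, and if whole gene bodies were counted, reads in introns enter these levels. The order, and the percentages between genes below, therefore describe counted reads and may differ from those of the transcripts. Gja1 stood at 39.0 ± 3.95, followed by Cacna1h at 11.8 ± 1.85 and Scn4b at 7.2 ± 3.02. Cacnb2 (4.87 ± 0.772), Gjc1 (4.54 ± 0.746) and Cacna1c (4.23 ± 0.732) formed a middle group whose order changed from library to library. Cacna1g (1.18 ± 0.234) and Cacna1d (1.11 ± 0.332) were the lowest of the 8 genes other than Gja5. For Gja5 the level depends on the length used: 0.476 ± 0.188 per kilobase of all exons, and 9.66 ± 3.81 per kilobase of its free exon bases. The second value takes all its reads to lie on those free exon bases, which does not hold if reads in introns were counted. Gja5 was therefore given no place in the order. Only the steps from Gja1 to Cacna1h and from Cacna1c to Cacna1g exceeded the spread, in that the ranges of the neighbours did not overlap. Dividing by the longest transcript instead moved Cacnb2 to 12.8, next to Cacna1h at 14.1, and put the second such step between Gjc1 (6.65) and Cacna1d (1.45).

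**Figure D2:**
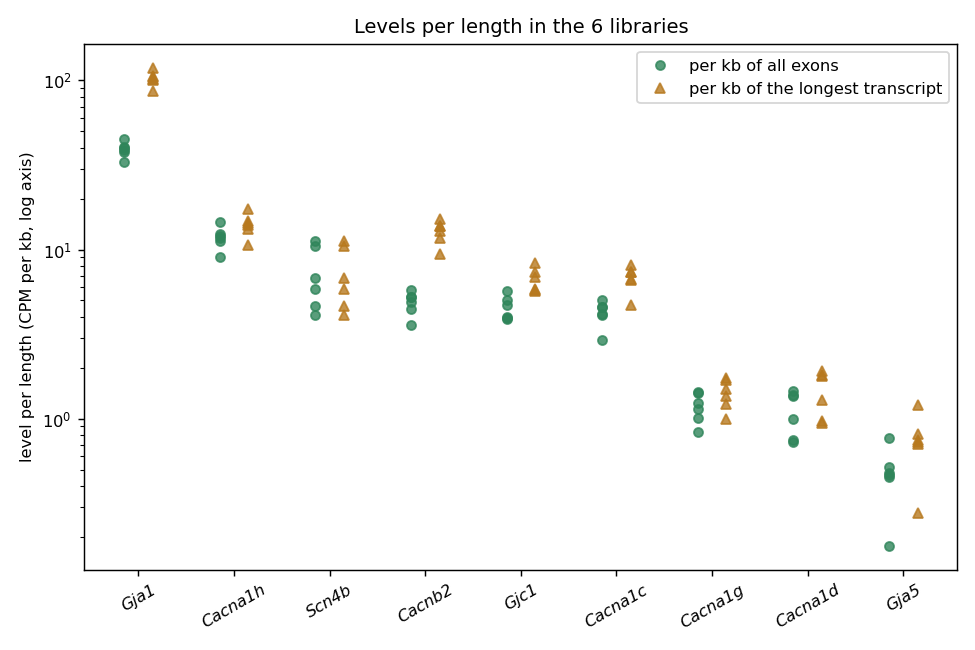
Level of each gene in CPM per kilobase of annotated exon, on a log axis, with 1 point per library; triangles divide by the longest transcript instead. Gja1 lies above all the others in every library, and Gja5 is drawn low because most of the exon length it is divided by could not be counted.

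No connexin passed the test in either reading of the labels. Gja1 (ENSMUSG00000050953, chr10:56377330-56402513 on GRCm38, as are all positions of genes here) was the steadiest of the 9 genes, at 461, 336 and 407 CPM in the libraries labelled WT 1 to WT 3 and 395, 414 and 389 CPM in KO 1 to KO 3. The KO libraries fell inside the range of the WT libraries, with means of 401 ± 62.8 (SD, n = 3) and 399 ± 12.9 CPM. Its log2 fold change was -0.01 (SE 0.16) by library name, while the genotype field gave -0.15 (SE 0.15, adjusted p = 0.92). In bulk tissue, fewer cells of a type and less RNA per cell cannot be told apart, here or in the genes that follow.

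Gjc1 (ENSMUSG00000034520, chr11:102799579-102819700) was at 19.4, 23.4 and 19.9 CPM in WT 1 to WT 3 and at 25.3, 28.6 and 19.7 CPM in KO 1 to KO 3. KO 1 and KO 2 were above all WT libraries, and KO 3 was among them. The log2 fold change was 0.23 (SE 0.19) by library name, while the genotype field gave 0.02 (SE 0.19, adjusted p = 0.9911). Relative to Gja1 per length, Gjc1 made up 8.62% to 14.3% over the libraries.

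Gja5 (ENSMUSG00000057123) rested on 17, 31 and 61 counts in WT 1 to WT 3 and 48, 41 and 90 counts in KO 1 to KO 3. These were 1.02, 2.61 and 2.67 CPM against 2.73, 2.97 and 4.41 CPM. All libraries labelled KO were above all labelled WT, yet the highest WT and lowest KO values lay within each other's counting intervals (95% exact Poisson 2.05 to 3.43 and 2.01 to 3.61 CPM; such intervals cover counting error only). Such separation was found in 5.95% of all tested genes by library name, and Gja5 was the only 1 of the 9 to show it. The log2 fold change of 0.69 (SE 0.42) had an unadjusted p of 0.129 and an adjusted p of 0.9999 in edgeR, the same adjusted p as each of the other 8 genes. Without WT 1 the fold change was 0.36. By genotype field the groups overlapped, at 2.8 ± 1.7 CPM in WT and 2.67 ± 0.0586 CPM in KO (log2 fold change -0.08, SE 0.46, adjusted p = 0.985). Between 0 and 2 counts per library fell on the antisense gene 4930573H18Rik.

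**Figure D3:**
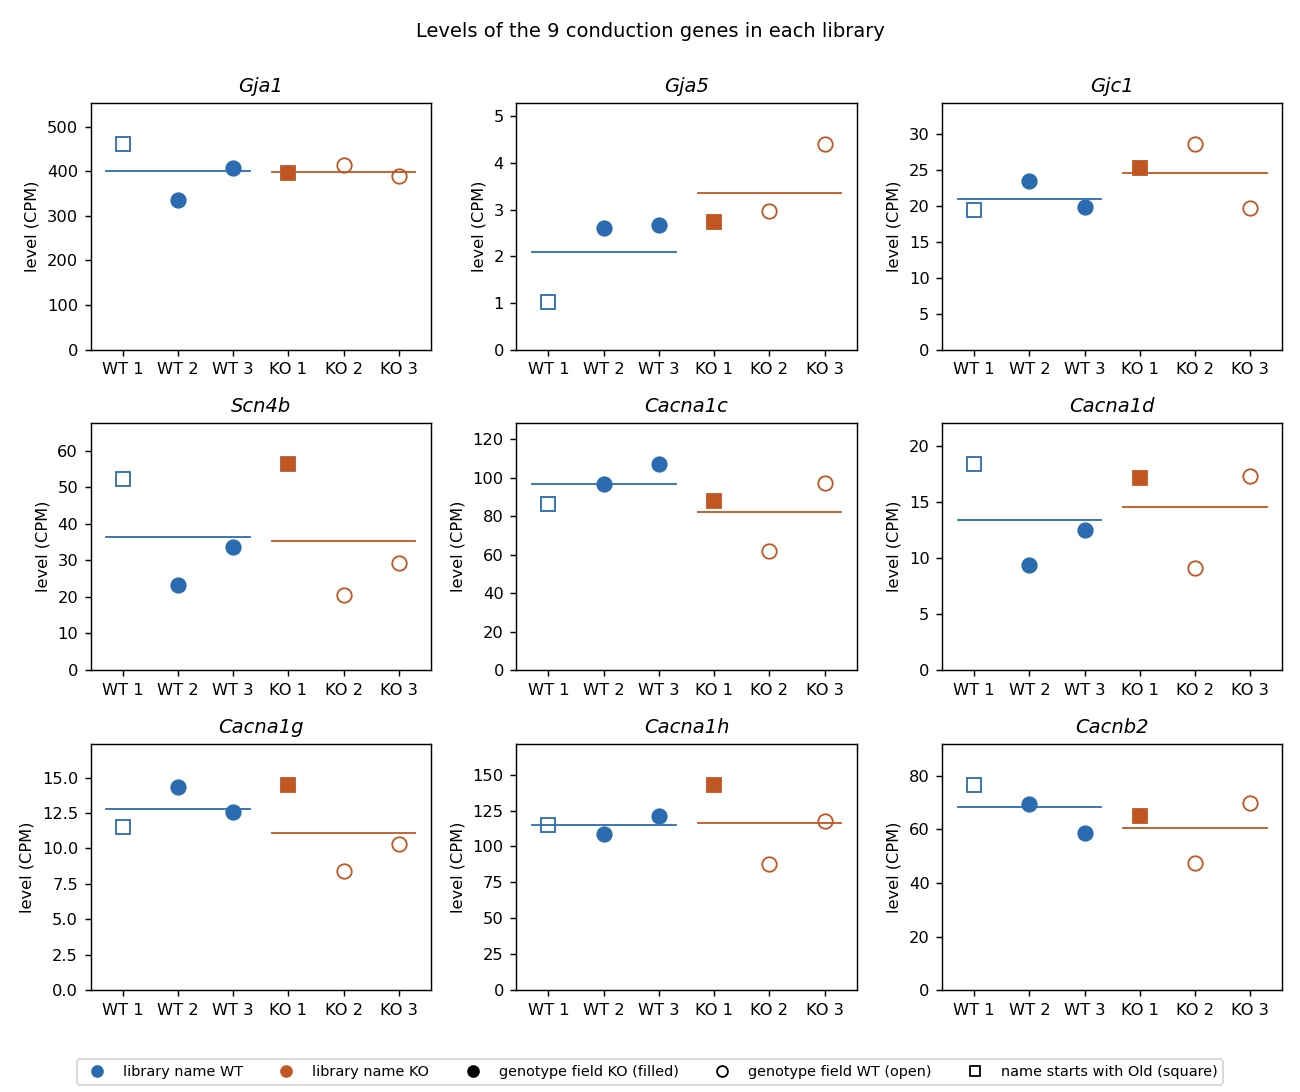
CPM of each of the 9 genes in the 6 libraries, on linear axes from 0. Colour gives the label in the library name, filled symbols KO by genotype field, squares names that start with Old, and lines the means by library name. Scn4b is highest in WT 1 and KO 1, and the 3 libraries labelled KO lie above the 3 labelled WT for Gja5.

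Scn4b (ENSMUSG00000046480, chr9:45138395-45154152) varied more than 97.0% of tested genes by the SD of its log2 CPM. It was at 52.2, 23.2 and 33.7 CPM in WT 1 to WT 3 and at 56.3, 20.4 and 29.3 CPM in KO 1 to KO 3. WT 1 and KO 1 were the high pair, and the other 4 libraries ranged from 20.4 to 33.7. The pair does not follow either label: the log2 fold change was -0.04 (SE 0.42) by library name, while the genotype field gave 0.15 (SE 0.41, adjusted p = 0.969).

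WT 1 and KO 1 share the start of their library name, "Old", where the other 4 names start with a number. They also share replicate number 1, and they are the 2 libraries whose labels agree, so these cannot be told apart. The labels do not say what the names stand for. Comparing the series of names was decided after the Scn4b values were seen. Scn4b averaged 54.3 CPM in the Old libraries and 26.7 ± 5.97 CPM (SD, n = 4) in the numbered ones, a log2 difference of 1.02 (SE 0.19) that ran from 0.91 to 1.15 when 1 library was left out. Since Scn4b prompted the split, this is a description with no test. Cacna1d gave a log2 difference of 0.54 (SE 0.25), but overlapped: numbered KO 3 was at 17.4 CPM, above Old KO 1 at 17.2 CPM. Gja5 went the other way, with -0.75 (SE 0.43). Of the 9 genes, 6 had a difference above 0. In that comparison 0 of 15279 genes (0.0%) passed the adjusted threshold in edgeR, 12.6% had an unadjusted p under 0.05 and 22.0% did not overlap, so genes that part the 2 kinds of name are common here.

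No L-type subunit gene passed the test either. Cacna1c (ENSMUSG00000051331, chr6:118587240-119196418) was at 86.6, 96.9 and 107 CPM in WT 1 to WT 3 and at 87.9, 61.8 and 97.2 CPM in KO 1 to KO 3. Only KO 2 left the range of the WT libraries. The log2 fold change was -0.23 (SE 0.18) by library name, -0.065 without KO 2, and 0.25 (SE 0.17, adjusted p = 0.909) by genotype field.

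Cacna1d (ENSMUSG00000015968, chr14:30039939-30491455) was at 18.4, 9.43 and 12.5 CPM in WT 1 to WT 3 and at 17.2, 9.14 and 17.4 CPM in KO 1 to KO 3. Values near 9 and near 17 occurred under both labels. Its fold change on the log2 scale was 0.12 (SE 0.30) by library name, while the genotype field gave -0.2 (SE 0.29, adjusted p = 0.942). Per length Cacna1d ranged from 16.3% to 35.6% of Cacna1c, lowest in WT 2 and highest in WT 1.

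Cacnb2 (ENSMUSG00000057914, chr2:14603088-14987908) was at 76.7, 69.3 and 58.7 CPM in WT 1 to WT 3 and at 65.1, 47.5 and 69.7 CPM in KO 1 to KO 3. As for Cacna1c, only KO 2 lay below all WT libraries. Its fold change on the log2 scale was -0.17 (SE 0.18) by library name, -0.016 without KO 2, and -0.01 (SE 0.18, adjusted p = 0.9955) by genotype field.

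Of the T-type pores, Cacna1h (ENSMUSG00000024112, chr17:25374285-25433783) was at 115, 109 and 121 CPM in WT 1 to WT 3 and at 143, 87.8 and 118 CPM in KO 1 to KO 3. The labelled KO libraries held both its highest and its lowest value. Its fold change on the log2 scale was 0.02 (SE 0.18) by library name, while the genotype field gave 0.22 (SE 0.16, adjusted p = 0.909).

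Cacna1g (ENSMUSG00000020866, chr11:94408391-94474198) was the only 1 of the 9 genes whose groups did not overlap by genotype field. It was at 11.5, 8.41 and 10.3 CPM in the WT group of that reading (WT 1, KO 2 and KO 3) and at 14.5, 14.3 and 12.6 CPM in its KO group (KO 1, WT 2 and WT 3). Means were 10.1 ± 1.57 and 13.8 ± 1.04 CPM (SD, n = 3), a log2 fold change of 0.45 (SE 0.19) with an unadjusted p of 0.0395 and an adjusted p of 0.868 in edgeR. By that reading 12.0% of all genes had groups apart and 5.69% had an unadjusted p under 0.05, and 0.0136% passed the adjusted threshold. Of the ventricular markers, Myl2 parted the same groups, while the sum of the others overlapped. Their part in the Cacna1g values was not tested. By library name Cacna1g overlapped (log2 fold change -0.2, SE 0.24, and -0.041 without KO 2).

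**Figure D4:**
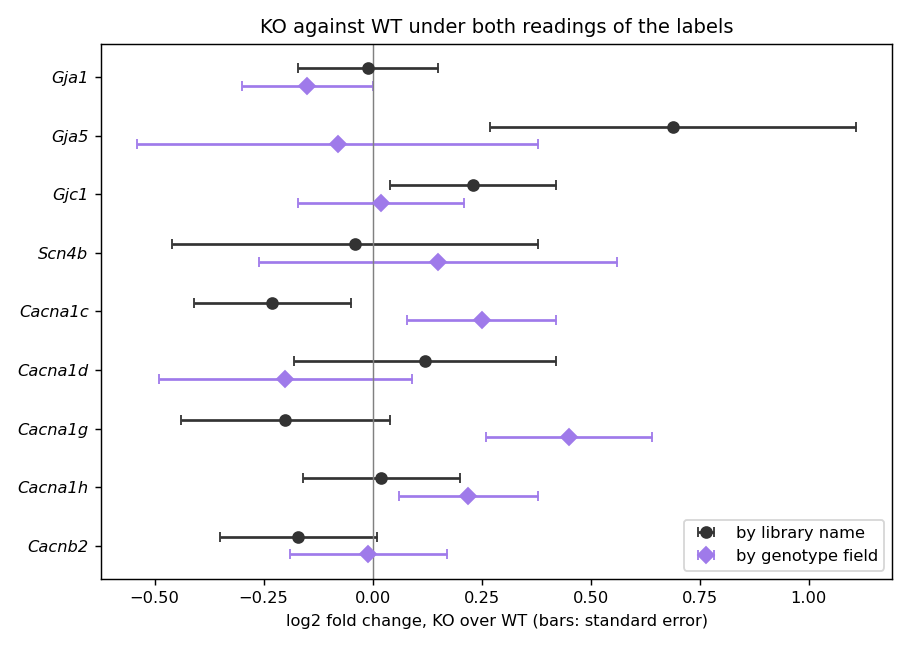
Log2 fold change, KO over WT, of the 9 genes by library name and by genotype field, with bars of 1 SE. The sign differs between the readings for 5 of the 9 genes, and Cacna1g by genotype field lies farthest from 0 relative to its SE. The readings swap the labels of 4 libraries, so a differing sign is partly built in.

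By library name, 4 of the 9 genes had a fold change above 0 and 5 below, with a median of -0.01, where all 14708 tested genes had a median of -0.02 and 0 (0.0%) passed the threshold. By genotype field 5 were above 0 and 4 below, with a median of 0.02 against -0.01 for all genes. Not 1 of the 9 passed in either reading, in edgeR, DESeq2 or limma-voom. At an unadjusted p under 0.05 the counts were 0 of 9 by library name, where 1.49% of all genes had one, and 1 of 9 by genotype field. With the replicate number as a block, the genotype field gave 51 genes in place of 2, and still none of the 9.

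KO 2 was the lowest of the 6 libraries for 6 of the 9 genes: Scn4b, Cacna1c, Cacna1d, Cacna1g, Cacna1h and Cacnb2, that is, each of the 6 channel genes among them and no connexin. It was the lowest for 17.8% of all tested genes. In related lists KO 2 was the lowest for 1 of 19 other calcium channel genes, 6 of 16 other sodium channel genes and 2 of 6 other connexins and pannexins. This was seen in the values first and has no test. Several marker sums were highest in the same library: smooth muscle and pericytes at 877 CPM (579 to 788 in the others), endothelium at 988 (793 to 943), fibroblasts at 1620 (1270 to 1550) and white adipocytes at 41.7 (7.44 to 37.2). Those of ventricular cardiomyocytes were lowest, at 153 CPM. Those of atrial cardiomyocytes were at 45700 CPM in KO 2, within the range of the other libraries (38200 to 49100). Other marker sums were not highest in KO 2 either. Arterial endothelium was at 117 CPM there (102 to 149 over the 6 libraries), macrophages at 149 (107 to 191) and epicardium at 140 (113 to 193). Schwann cells and neurons were at 59.2 CPM (40.1 to 59.9), and erythroid cells at 77.0 (36.1 to 126). The part of these cell types in the channel values was not tested.

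**Figure D5:**
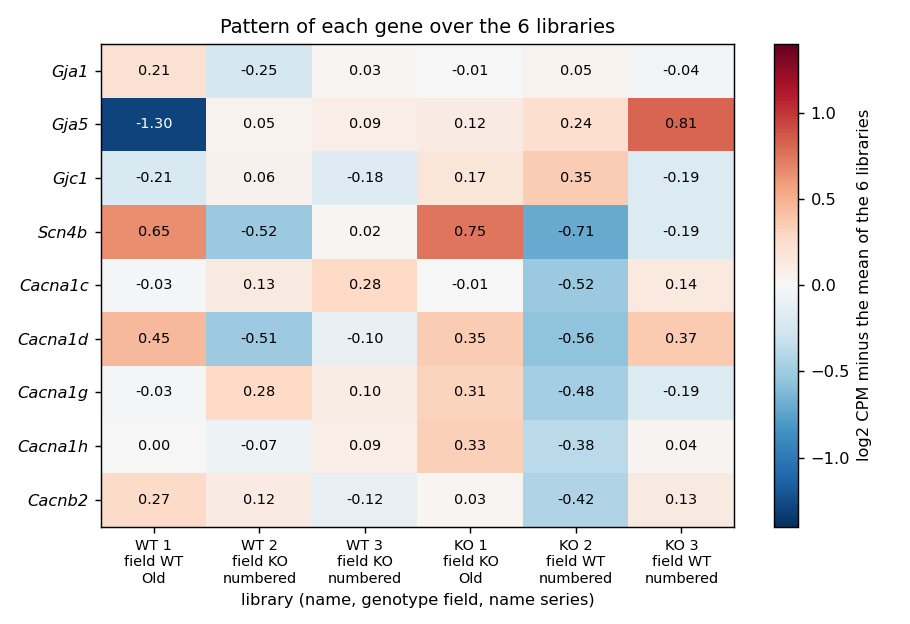
Log2 CPM of each of the 9 genes in each library minus its mean over the 6 libraries, blue below and red above the mean, with the values printed. The KO 2 column is below 0 for all 6 channel genes, from -0.38 for Cacna1h to -0.71 for Scn4b, and above 0 for the 3 connexins.

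Ratios of paired subunits do not depend on library size, and 4 were compared by exact two-sided permutation over libraries, where 20 assignments allow no p below 0.1. By library name the mean log2 ratio, KO minus WT, was 0.77 for Gja5 to Gja1 (p = 0.4) and 0.22 for Gjc1 to Gja1 (p = 0.5) in the exact test. For Cacna1d to Cacna1c it was 0.37 (exact p = 0.4), and for Cacna1g to Cacna1h -0.23 (exact p = 0.2). All 4 had an adjusted p of 0.5, and single libraries moved them. The Gja5 to Gja1 difference was 0.21 without WT 1, and the Gjc1 to Gja1 difference 0.06 without WT 1 and 0.42 without WT 2. The Cacna1d to Cacna1c difference was 0.14 without WT 2 and 0.7 without WT 1, and that of Cacna1g to Cacna1h -0.11 without WT 2. By genotype field the Cacna1g to Cacna1h ratio was higher in KO by 0.24 with the smallest p the exact test can give, 0.1 (0.4 after adjustment over the 4 ratios). The other 3 had exact p-values from 0.3 to 0.9. Per length, Cacna1g was 8.44% to 12.7% of Cacna1h, so by this measure Cacna1h was the higher T-type pore gene in all 6 libraries.

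Of 110 other conduction genes in the table, 75 had enough reads to test and 0 passed by either reading. By library name 27 were above 0 and 48 below, with a median of -0.06, and by genotype field 33 and 42, with a median of -0.07. At an unadjusted p under 0.05 there were 1 and 5 such genes, close to the 1.49% and 5.69% of all genes. Among the other connexins and pannexins, 6 of 20 were tested, and the most abundant were Gja3, Gja4 of arterial endothelium, and Panx1. Gja3 was at 28.1 to 36.8 CPM, with a log2 fold change of 0.14 (SE 0.15) by library name and -0.08 (SE 0.14) by genotype field.

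The sodium channel list gave 5 genes above 0 and 11 below in both readings, with medians of -0.06 and -0.1. Among its most abundant genes were Fgf12, a channel-binding factor (0.11 by library name, -0.12 by genotype field), and Ank3, an ankyrin (-0.14 and -0.17). In the calcium channel list 12 were above 0 and 7 below by library name, and 9 and 10 by genotype field. Ahnak (0.02 and -0.07) and the calmodulin gene Calm2 (0.02 and -0.24) were among its most abundant genes.

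Intercalated disc genes, which anchor gap junctions and sodium channels at the cell ends, lay mostly below 0: 15 of 17 by library name (median -0.18) and 11 of 17 by genotype field (median -0.15). Of all 14708 genes, 8014 and 7633 lay below 0 in these readings. None passed the test, and the most abundant were Ctnna1 (-0.02 and -0.2), Dsp (-0.25 and 0.01) and Xirp2 (-0.17 and 0.23). Of 17 conduction transcription factors tested, 5 were above 0 by library name and 8 by genotype field. The most abundant were Hopx (0.15 and -0.13), Tbx5 (-0.23 and -0.07) and Gata4 (-0.02 and 0.15).

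Nkx2-5, a cardiac transcription factor known to act on Gja5, was picked out after its values were seen, as the single listed gene that passed under other settings. By genotype field it was at 21.9, 20.3 and 20.2 CPM in WT (WT 1, KO 2 and KO 3) and at 30.6, 49.6 and 35.1 CPM in KO (KO 1, WT 2 and WT 3), without overlap. Its fold change on the log2 scale was 0.88 (SE 0.19) with an adjusted p of 0.551 in edgeR. The adjusted p was 0.0307 with the replicate block, 0.0418 in DESeq2 and 0.00619 in edgeR with no filter on low counts. Of the ventricular markers, Myl2 was higher in the same 3 libraries, while the sum of the others overlapped. Their part in it was not tested. By library name the fold change was -0.58 (SE 0.28).

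The genes whose profile over the 6 libraries lay nearest to the 3 most variable of the 9 were found among 10539 genes. These had a mean of 5 CPM or more, and nearness was the root mean square (RMS) difference of centred log2 CPM. Prkab1 (RMS 0.0482) and Cecr2 (0.095) were nearest to Scn4b, whose own RMS about its mean was 0.547. Med12 (0.0693) and Tia1 (0.12) were nearest to Cacna1d (own RMS 0.419). Gja5 (own RMS 0.637) had no neighbour as close, with Mmp9 at 0.211 and Gm11273 at 0.225. At a mean of 2.73 CPM and 17 to 90 counts per library, Gja5 itself lies under that floor, and counting error adds to its distances. With so few points and so many genes, close profiles are a description only.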

How the data were processed

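RNA of 6 atria, 1 library each, was sequenced after RNeasy extraction and TruSeq v2 preparation, which does not mark strand, per the labels' protocols. The submitters' processing notes list HISAT2 2.1.0, featureCounts 1.5.0-p3, FastQC 0.11.5, MultiQC 1.7 and the build GRCm38. Neither the annotation release nor the counting settings were found in them. The authors deposited raw counts of reads per gene, without normalisation, for 54838 Ensembl genes. Of these, 31167 were at 0 in all libraries, 54723 were given a symbol from the reference gene tables, and 54809 were placed by GENCODE M21.

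Counts were tested in edgeR 4.0.16 (R 4.3.3) by the quasi-likelihood F test with TMM scaling and its default filter on low counts, two-sided, with Benjamini-Hochberg adjustment over the 14708 genes kept and a threshold of 0.05. The test was run on the library names and again on the genotype field. Alternatives were DESeq2 1.42.0, limma-voom (limma 3.58.1), DESeq2 size factors, no filter, a threshold of 0.1, covariates for name series and Y-linked expression, the numbered libraries alone, a replicate block and leaving out each library. Same-numbered libraries deviated together, with correlations of 0.127 to 0.179 by library name and 0.113 to 0.332 by genotype field. All exceeded 0.1, so the numbers were taken to pair the samples in the replicate block, which is an alternative. The main fits and the exact permutation tests left the pairing out, so their p-values are those of unpaired samples. This pairing comes from the values, since the labels do not state one, and by genotype field KO 3 correlated more with the differently numbered WT 2 (0.169) than with WT 3 (0.113). Deviations were taken from the group means, so the same-numbered correlations of a reading are not independent of each other. Replicate number 1 is also that of both Old libraries, so pairing and name series cannot be told apart by these correlations. The fit was tested on simulated data with 200 changed genes. Every pair of the 6 libraries differed beyond counting noise (chi-square per degree of freedom 18.8 to 61.9), and the labels call them biological replicates.

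Named are the 9 genes and Prkce, the 3 most abundant tested genes of each other list with any past the threshold, the 2 nearest genes to the 3 most variable members, and marker lists by their sum. Some genes that this rule would name are not reported here. Members and lists were chosen with earlier results of these data known.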

Additional observations from a re-analysis of the deposited data

How the results depend on the processing

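None of the 9 genes passed the threshold in either reading under any alternative run. The cause of the changes below was not tested. Replicates are numbered by library name. By library name 0 genes of the whole table passed. That count became 1 with no filter, 4 with Y-linked expression as a covariate, 3 in the numbered libraries alone, and 0 to 4 when 1 library was left out (2 without WT 1 and 4 without WT 3). By genotype field the 2 genes became 18 in DESeq2, 1 in limma-voom, 25 with no filter, 7 with the name series as a covariate, and 0 to 2 when 1 library was left out (0 without WT 1 or KO 3). The count of listed conduction genes went from 0 to 1 in DESeq2, with no filter and with the replicate block, each time Nkx2-5.

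With the replicate block, 51 genes passed by genotype field. The block turned the sign of Gja1 (0.0041) and Cacna1h (-0.0086) by library name, and of Gja5 (0.085) and Cacnb2 (0.013) by genotype field, and it changed no call of the 9 genes.

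By library name, Gja1 also turned to 0.0018 with DESeq2 size factors, 0.0033 in DESeq2, 0.0053 in limma-voom, 0.0013 with no filter, 0.00036 with the name series and 0.12 in the numbered libraries, and ran from -0.11 to 0.1 leaving 1 out. Cacna1h turned to -0.01 in limma-voom, -0.00055 with the name series, -0.062 with the Y-linked covariate and -0.16 in the numbered libraries, and ran from -0.15 to 0.19 leaving 1 out. The Y-linked covariate turned Scn4b to 0.07 and Cacnb2 to 0.051. Leaving 1 out, Scn4b ran from -0.54 to 0.31 and Cacna1d from -0.065 to 0.41. Gja5 (0.34 to 0.92), Gjc1, Cacna1c and Cacna1g kept their sign in all 14 alternatives.

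By genotype field, Gja5 turned to 0.13 in limma-voom, 0.074 with the name series and 0.067 with the Y-linked covariate, and ran from -0.48 to 0.43 leaving 1 out. Cacnb2 turned to 0.014, 0.0023 and 0.0026 under the same settings and to 0.12 in the numbered libraries, and ran from -0.19 to 0.12. In the numbered libraries Gjc1 turned to -0.16 and Prkce to 0.3. Those are the libraries whose labels conflict, so in them alone both readings give the same fit with the sign reversed. Leaving 1 out, Gjc1 ran from -0.085 to 0.22, Scn4b from -0.25 to 0.59, and the log2 ratio of Gja5 to Gja1 from -0.35 (without WT 1) to 0.82. Cacna1g stayed between 0.34 and 0.55, with adjusted p from 0.476 to 1.0. The 17 to 90 counts of Gja5 limit its precision, as does the uncounted part of its exons.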

Other observations

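The other lists were set against the start of the library name too, a split of the samples chosen after the Scn4b values were seen, so the counts are a description. At an unadjusted p under 0.05 in edgeR's quasi-likelihood test, 8 of 17 intercalated disc genes were higher in the 2 Old libraries and 2 were lower. In the sodium channel list 3 of 17 were higher and 0 lower, in the calcium channel list 2 and 2 of 19, among transcription factors 2 and 0 of 17, and among connexins and pannexins 0 and 1 of 7. Over all 15279 genes tested, 1069 were higher and 852 lower at that p. After adjustment 0 genes passed. What the names stand for is not given in the labels.

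Of the 110 other listed genes 10 were at 0 counts in all 6 libraries, and the bodies of 5 of them lie wholly under other annotated genes. A count of 0 for those 5 is therefore not a measure of their expression. Among the marker lists, Tcf21 of fibroblasts, Acta1 and Myh1 of skeletal muscle and Alas2 of erythroid cells were also at 0. Tcf21, Acta1 and Alas2 too lie wholly under other genes, and 45.7% of the Myh1 body is free. White adipocyte markers summed to 7.44, 37.2 and 15.2 CPM in WT 1 to WT 3 and to 8.97, 41.7 and 25.7 CPM in KO 1 to KO 3.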
